A study of Rattus norvegicus with 28 samples.

Results

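Endothelial cells from the normal, ungrafted hearts of DA rats were compared with those from the normal hearts of Lewis rats, across all genes measured. The members were the 3 arrays labelled as controls of the allografts (normal DA hearts) and the 3 labelled as controls of the isografts (normal Lewis hearts), 6 of the 28 arrays of the series. All animals were male, none of these 6 preparations came from a transplanted heart, and the age was not given in the sources used here. For all 6, hearts had been minced, cells carrying the leukocyte antigen CD45 had been removed with magnetic beads, and cells carrying the endothelial antigen CD31 had been collected, so the samples are enriched preparations and not pure cells. The 3 arrays of each group are described as biological replicates, but whether each came from 1 animal was not given, and the p-values below measure only the spread between these samples. For comparison, 18 arrays of grafts were used: DA hearts in Lewis recipients (allografts) and Lewis hearts in Lewis recipients (isografts), taken on days 2, 3 and 4 with 3 arrays per group. The donor strain of a graft is that of its heart cells, whereas its blood-borne cells come from the Lewis recipient. The remaining 4 arrays, of leukocytes, were not used.

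DA and Lewis are inbred rat strains, so animals of 1 strain are nearly identical genetically and the strains differ at fixed positions all over the genome. They carry different haplotypes of the major histocompatibility complex, which the rat calls RT1. Its class I molecules present peptides from inside the cell to cytotoxic T cells and are made by endothelial cells at rest, its class II molecules present peptides to helper T cells, and interferons raise both. In a DA heart placed into a Lewis rat, the endothelium carries the foreign class I molecules where the recipient's blood first meets them. The comparison of the normal hearts gives the differences that are present before any graft is made. The array reports the log2 fluorescence of a probe set, a group of short DNA probes for 1 transcript. Where a strain has a different base under those probes, its signal can be lower at the same amount of RNA, and the transcript level and the binding of the probes cannot be told apart for a single probe set. A level is therefore compared only with the same probe set in other samples, and a difference of 1 on the log2 scale is a doubling of signal.

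The 6 arrays had median signals of log2 6.52 to 6.56. Over 14217 genes, the correlation between arrays was 0.989 to 0.993 within DA, 0.986 to 0.99 within Lewis and 0.983 to 0.991 between the strains. Genes, over which these correlations run, are no independent replicates. Endothelial markers were high in both strains: the mean over 18 measured markers was log2 12.10, 12.15 and 12.14 in the DA arrays and 12.21, 12.08 and 11.96 in the Lewis arrays, and none of the 18 passed the test described below. The gene for CD31, Pecam1, was at 11.87, 12.18 and 11.7 in DA and at 11.94, 11.58 and 11.04 in Lewis. Pecam1 passed as higher in DA in an alternative limma fit with the mean of mural cell markers as a covariate (0.8, adjusted p = 0.0489). That fit was added after the data were seen. The gene for CD45, Ptprc, was at 5.43, 5.44 and 5.41 in DA and at 5.4, 5.29 and 5.68 in Lewis, and 0 of 16 pan-leukocyte markers passed. Of these 16, 14 had a DA minus Lewis difference below 0, with a median of -0.21 against 0 over all genes. Among them, Lcp1 passed as lower in DA in some alternative limma fits. These were a repeated quantile normalization (-0.79, adjusted p = 0.0148), array weights (-0.63, 0.0171) and the pan-leukocyte mean as a covariate (-0.58, 0.028). The endothelial label matched the markers in both strains, while 7 of 19 markers of heart muscle and 1 of 13 markers of mural cells, described further on, were called lower in the DA preparations.

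The strains differed in a small share of the genes. In limma fits over all 24 endothelial arrays, a gene was called different at a Benjamini-Hochberg adjusted p under 0.05, with all 14217 genes in the adjustment. Called were 144 genes (1.01% of those tested), of which 69 (0.485%) were higher in DA and 75 (0.528%) lower, and 1179 genes had an unadjusted p under 0.05. In 35 genes DA was higher by at least log2 1 and in 42 lower, while 8 were higher and 11 lower by at least log2 2. The median difference over all genes was 0, 50.4% of the genes had a difference above 0, and the median standard error (SE) 0.165, and the number of arrays limits this precision. The 3 DA values lay entirely above or entirely below the 3 Lewis values in each of the 144 genes, against 7.88% of all genes with DA above and 8.53% with DA below. The call selects for such separation, so it adds nothing to it. Leaving out single normal arrays gave 75 to 132 calls, with the fewest without DA replicate 2 (75), Lewis replicate 2 (83) and DA replicate 1 (93).

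**Figure D1:**
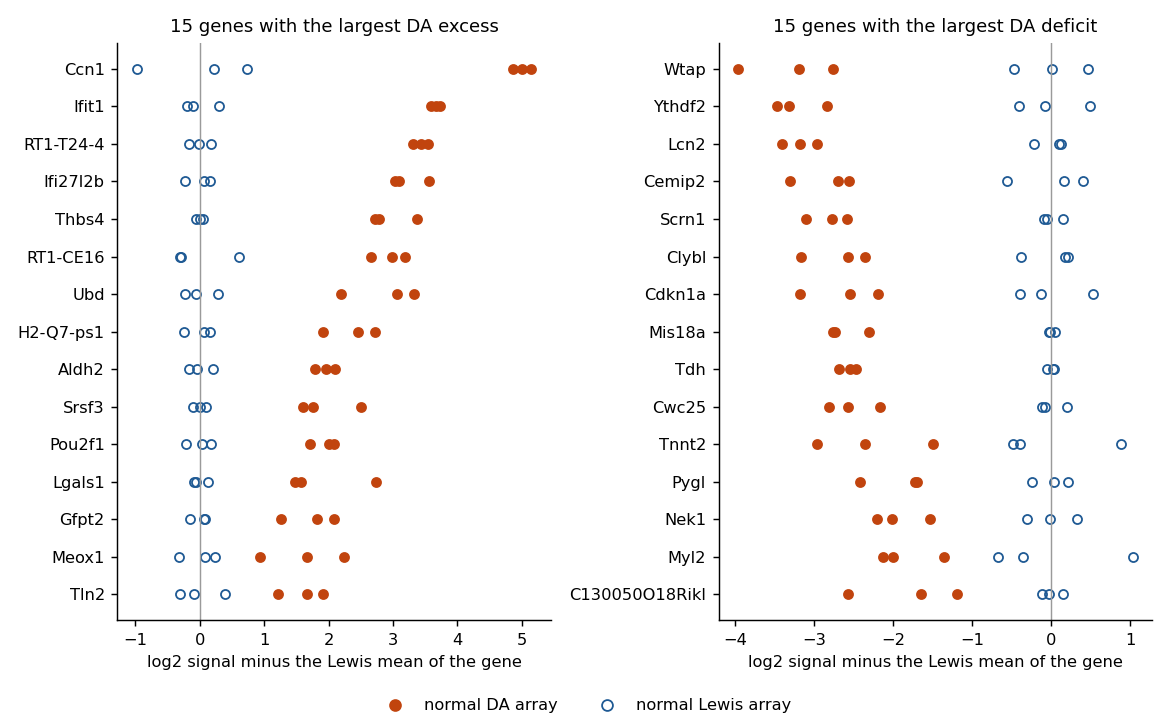
The 15 genes with the highest and the 15 with the lowest difference between strains among the genes called in normal hearts. Each point is 1 array, filled for DA and open for Lewis, and the horizontal axis is the log2 signal minus the gene's Lewis mean. The DA points of Ccn1 lie about 5.01 to the right of the Lewis mean and those of Wtap 3.3 to the left, and in none of the 30 genes do the strains overlap.

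Class I heavy chains of the RT1 complex differed in both directions. Of 12 measured genes of this family, 4 were called higher in DA (0.485% of all genes were), 2 lower (0.528% of all genes) and 6 were not called. The median difference of the 12 was 0.17 against 0 over all genes. These genes are close copies of each other and differ between RT1 haplotypes, so a probe set may bind several of them or fit the sequence of only 1 strain, and which of the copies gave a signal is uncertain. The values below are those of the probe sets that carry the gene's name.

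RT1-T24-4 had the smallest adjusted p-value of all genes. Its signal was 12.68, 12.81 and 12.92 in the DA arrays and 9.55, 9.37 and 9.21 in the Lewis arrays, a difference of 3.43 ± 0.15 (SE), or 10.8-fold (limma adjusted p = 6.88e-12). The arrays of each strain lay close together, and the strains were far apart. RT1-CE16 was at 9.86, 10.19 and 10.39 in DA and at 6.9, 6.91 and 7.81 in Lewis, a difference of 2.94 ± 0.25 or 7.69-fold (adjusted p = 4.47e-07). The highest of the Lewis arrays, replicate 3, was still well below the lowest DA array. RT1-CE10 was at 9.27, 9.65 and 9.48 in DA and at 8.46, 7.94 and 7.93 in Lewis (1.36 ± 0.31, adjusted p = 0.0325). RT1-S3 was higher in DA by 0.99 ± 0.18 (12.11, 12.37 and 12.54 against 11.54, 11.18 and 11.34, adjusted p = 0.00684). All 4 of its probe sets gave a similar value, from 0.96 to 1.18.

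The other direction was seen in RT1-A3 and RT1-T24-3. RT1-A3 was at 5.34, 5.03 and 5.13 in DA and at 7.01, 6.57 and 6.72 in Lewis (-1.6 ± 0.25, adjusted p = 0.00167). Its DA values were low for this array, and its second, dimmer probe set differed by only 0.06 ± 0.17. RT1-T24-3 was at 10.53, 11.01 and 11.51 in DA and at 12.45, 12.39 and 12.55 in Lewis (-1.45 ± 0.33, adjusted p = 0.0359). That call was lost without any 1 of DA replicates 1 and 2 and the 3 Lewis arrays (adjusted p of 0.0894 to 0.214), with differences of -1.2 to -1.49. The 6 genes that were not called included RT1-A, in which the DA arrays were above the Lewis arrays (8.96, 9.6 and 9.73 against 8.47, 8.45 and 7.89, adjusted p = 0.289). RT1-CE5 had 1 DA array far below all others (7.19, with 10.08 and 9.96 in the other DA arrays and 10.47, 10.01 and 10.04 in Lewis). RT1-CE12 gave nearly the same signal in both strains, at 10.7, 10.99 and 10.9 in DA and 10.74, 10.84 and 10.66 in Lewis. H2-Q7-ps1, named in the annotation after a mouse class I pseudogene and not on the list, was also among the genes highest in DA (7.73, 8.27 and 8.54 against 5.58, 5.98 and 5.89, difference 2.37 ± 0.24, adjusted p = 5.67e-06).

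None of 8 measured class II genes was called in normal hearts. Their median difference was -0.24, and 6 of the 8 were lower in DA without passing the test. The largest difference was that of RT1-DMb, part of the molecule that loads class II with peptide, at 6.95, 6.64 and 6.51 in DA and 7.66, 7.65 and 7.7 in Lewis (-0.97 ± 0.27, adjusted p = 0.115), which passed in the fit on the 6 normal arrays alone (adjusted p = 0.016). Cd74, the invariant chain that accompanies class II molecules through the cell, was at 7.64, 7.65 and 7.84 in DA and 7.58, 7.62 and 7.3 in Lewis. Of 68 other genes of the RT1 region, none was called, and their median difference was 0.1.

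Genes that act in the loading of class I molecules, and genes that interferons induce, had differences that were mostly above 0 and mostly did not pass the test. Of 14 measured genes for peptide loading and the immunoproteasome none was called, all 14 lay at 0 or above (50.4% of all genes were above 0), in 8 the DA arrays lay entirely above the Lewis arrays (7.88% of all genes did) and the median was 0.38. The largest was that of Nlrc5, the transactivator of class I genes, at 6.73, 6.78 and 7.32 in DA and 6.17, 5.93 and 5.87 in Lewis (0.95 ± 0.32, adjusted p = 0.298). Psmb9, a catalytic subunit of the immunoproteasome, was at 11.32, 11.46 and 11.57 in DA and 11.02, 10.81 and 10.41 in Lewis (0.7 ± 0.28, adjusted p = 0.432). Nlrc5 (0.96, adjusted p = 0.0409), Psmb9 (0.72, 0.0426) and Psmb8 (0.73, 0.0428) passed in the limma fit with array weights. That fit gave 554 calls over all genes, against 144 in the main fit.

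Of 30 measured genes induced by type I interferon, 2 were called, both higher in DA (0.485% of all genes were), and the median was 0.43 against 0 over all genes. A difference above 0 was found in 26 of the 30 (50.4% of all genes), and 17 had all DA arrays above all Lewis arrays (7.88% of all genes). Ifit1, an antiviral protein that binds foreign RNA, was at 10.05, 10.13 and 10.2 in DA and 6.27, 6.76 and 6.36 in Lewis. The difference of 3.67 ± 0.26 was 12.7-fold (adjusted p = 2.45e-08), and each strain's arrays were tightly grouped. Ifi27l2b, a small interferon-inducible protein, was at 12.33, 12.27 and 12.81 in DA and 9.02, 9.31 and 9.4 in Lewis (3.23 ± 0.3, 9.37-fold, adjusted p = 1.11e-06). The other 28 did not pass, and the largest among them were Mx1, an antiviral GTPase, and Irf7, the transcription factor that amplifies type I interferon. Mx1 was at 10.35, 10.23 and 11.05 in DA and at 8.85, 8.86 and 8.83 in Lewis (1.7 ± 0.55, adjusted p = 0.246). Irf7 was at 11.73, 12.12 and 12.58 in DA and at 10.78, 10.72 and 10.63 in Lewis (1.44 ± 0.45, adjusted p = 0.219). In both genes the DA arrays were all above the Lewis arrays, with replicate 3 the highest DA array. Where the fit took only the 6 normal arrays and not the spread of the graft groups, both passed (Mx1 adjusted p = 0.00816, Irf7 0.0158).

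Of 15 measured genes induced by interferon-gamma, 1 was called higher in DA (0.485% of all genes were), 14 had a difference above 0 (50.4% of all genes) and the median was 0.41. The called gene was Ubd, a ubiquitin-like protein that marks others for degradation, at 9.88, 10.76 and 11.02 in DA and 7.47, 7.98 and 7.63 in Lewis (2.86 ± 0.51, 7.24-fold, adjusted p = 0.00437). The lowest DA array was far above the highest Lewis array. The next was Cxcl9, a chemokine for activated T cells, in which the strains overlapped (10.95, 9.9 and 10.27 against 9.12, 10.28 and 8.95, adjusted p = 0.741).

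The promoters of interferon-induced genes often carry an interferon-stimulated response element, here searched as GAAA, any 2 bases and again GAAA, on both strands in the 250 bases before the start of each gene (RefSeq, assembly GRCr8, the genome of another strain, so the letters are neither those of DA nor those of Lewis). It was found in 902 of 27457 promoters (3.29%) and in 311 of 11700 promoters of measured genes (2.66%). On the lists it stood in 15 of 22 promoters of type I interferon genes (68.2%), 8 of 14 of interferon-gamma genes (57.1%), 6 of 11 of peptide loading genes (54.5%) and 2 of 11 of class I genes (18.2%). Of the genes called higher in DA, 3 of 54 promoters had it (5.56%), those of RT1-S3, Mcub and Casp12, and of those called lower 0 of 56. Mcub, the inhibitory subunit of the mitochondrial calcium uniporter, was higher in DA by 1.51 ± 0.36 (adjusted p = 0.0449), and Casp12, an inflammatory caspase, by 1.23 ± 0.26 (adjusted p = 0.0172). Ubd, Ccn1, RT1-T24-4 and RT1-CE16 had no match in this window, and the promoters of Ifit1 and Ifi27l2b were not analysed here. The promoters of RT1-S3 (chr20:2675278-2675527, plus strand) and Mcub (chr2:221223815-221224064, minus strand) are shown as those of called genes, and that of Irf7 (chr1:205800024-205800273, minus strand) as one of a gene on the interferon list. The capitals mark the matches, all here on the opposite strand, and a match is a description of letters and no evidence of binding.
RT1-S3: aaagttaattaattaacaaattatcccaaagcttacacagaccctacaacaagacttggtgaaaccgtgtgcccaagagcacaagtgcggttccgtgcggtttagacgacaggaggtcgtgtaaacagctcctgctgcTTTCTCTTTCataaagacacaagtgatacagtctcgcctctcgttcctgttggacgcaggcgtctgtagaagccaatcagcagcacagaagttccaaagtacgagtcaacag
Mcub: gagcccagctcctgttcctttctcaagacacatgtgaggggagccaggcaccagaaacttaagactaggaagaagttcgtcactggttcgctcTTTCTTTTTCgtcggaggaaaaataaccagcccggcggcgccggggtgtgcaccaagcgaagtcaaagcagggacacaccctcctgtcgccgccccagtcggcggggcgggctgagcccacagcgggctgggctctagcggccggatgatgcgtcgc
Irf7: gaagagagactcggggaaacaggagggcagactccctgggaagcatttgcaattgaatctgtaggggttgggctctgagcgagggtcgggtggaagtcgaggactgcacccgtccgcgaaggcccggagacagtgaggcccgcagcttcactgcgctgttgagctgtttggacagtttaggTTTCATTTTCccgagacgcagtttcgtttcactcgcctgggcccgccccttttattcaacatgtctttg

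The largest difference of all named genes was that of Ccn1, a secreted matrix protein that binds integrins and acts in vessel growth. Ccn1 signal was 12.45, 12.74 and 12.6 in DA and 7.82, 8.33 and 6.62 in Lewis, a difference of 5.01 ± 0.57 or 32.2-fold (adjusted p = 2.31e-05). The Lewis arrays were far lower than the DA arrays and more spread. Thbs4, a thrombospondin of the extracellular matrix, was at 8.72, 8.06 and 8.13 in DA and 5.4, 5.28 and 5.35 in Lewis (2.96 ± 0.36, adjusted p = 5.96e-05). The Lewis values were tight and lay under log2 6, the level that marks a dim probe set here. The lists of 26 matrix genes and of 28 genes of angiogenesis and Notch signalling, to which Ccn1 and Thbs4 do not belong, had medians of -0.02 and 0.01 and no called member.

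Further genes higher in DA had various roles. Aldh2, the mitochondrial enzyme that clears aldehydes, was at 9.79, 9.96 and 10.11 in DA and 8.21, 7.97 and 7.84 in Lewis (1.95 ± 0.31, adjusted p = 0.00167). Pou2f1, a transcription factor that binds the octamer motif, was at 8.05, 7.75 and 8.12 against 6.22, 6.07 and 5.82 (1.94 ± 0.21, adjusted p = 9e-06). Gfpt2, which starts the hexosamine pathway, was at 9.68, 10.24 and 10.51 against 8.49, 8.27 and 8.5 (1.72 ± 0.25, adjusted p = 0.000748). In these 3 genes the lowest DA array was clearly above the highest Lewis array. Srsf3, a splicing factor, was at 9.67, 8.76 and 8.92 against 7.06, 7.26 and 7.17 (1.95 ± 0.37, adjusted p = 0.00738), with DA replicate 1 the highest. Lgals1, a lectin that binds galactosides, was at 11.24, 10.07 and 9.99 against 8.64, 8.42 and 8.45 (1.93 ± 0.37, adjusted p = 0.00919), again with DA replicate 1 the highest. Without that array both calls were lost (Srsf3 adjusted p = 0.0638, Lgals1 0.0771), as was that of Lgals1 without Lewis replicate 2 (0.0522).

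Meox1, a homeobox transcription factor, was at 8.66, 8.08 and 7.35 in DA and 6.5, 6.09 and 6.65 in Lewis (1.61 ± 0.35, adjusted p = 0.0217). Tln2, a talin that links integrins to actin, was at 7.56, 7.81 and 7.11 in DA and 6.3, 5.59 and 5.81 in Lewis (1.59 ± 0.32, adjusted p = 0.0116). In both the strains did not overlap, but each call was lost without any 1 of 4 arrays (Meox1 adjusted p 0.054 to 0.155, Tln2 0.0587 to 0.0959), among them DA replicates 1 and 2 and Lewis replicate 2 for both, Lewis replicate 1 for Meox1 and Lewis replicate 3 for Tln2. Meox1 also missed the threshold in the fit on the 6 normal arrays alone (adjusted p = 0.058). Of 29 chemokines, 1 was called higher in DA (0.485% of all genes were), and the median of the list was -0.04. The called gene was Cxcl16, a chemokine that is also anchored in the membrane, at 10.2, 10.62 and 10.36 in DA and 9.23, 9.21 and 9.31 in Lewis (1.14 ± 0.26, adjusted p = 0.0368). Of 8 venous markers, 1 was called higher in DA (0.485% of all genes were), with a list median of 0.14. It was Ackr1, a receptor of venules that binds chemokines without signalling, at 8.42, 7.9 and 8.45 in DA and 7.18, 7.06 and 6.76 in Lewis (1.25 ± 0.3, adjusted p = 0.0449). The calls of Cxcl16 and Ackr1 were each lost without any 1 of the 6 arrays, with adjusted p of 0.0687 to 0.203 and 0.0563 to 0.232. Ackr1 was also lost with the pan-leukocyte covariate (0.0677) and Cxcl16 with the mural covariate (0.0759).

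Among the genes lower in DA, Wtap and Ythdf2 had the lowest differences. Wtap, a subunit of the complex that methylates adenosines in messenger RNA, was at 8.79, 7.6 and 8.37 in DA and 11.08, 11.57 and 12.02 in Lewis (-3.3 ± 0.27, 9.84-fold lower, adjusted p = 2.2e-07). Ythdf2, which binds methylated RNA and leads to its decay, was at 8.26, 7.62 and 7.78 in DA and 10.68, 11.02 and 11.58 in Lewis (-3.21 ± 0.27, 9.24-fold lower, adjusted p = 4.06e-07). In both genes the Lewis arrays stood in the same order, with replicate 3 highest and replicate 1 lowest, and so they did in Nek1, Sync and Dnajb6, genes also called lower in DA and picked out after their values were seen. A second probe set of almost the same mean signal showed no such gap in either gene. For Wtap it was at 9.91, 9.98 and 9.79 in DA and 10.15, 9.67 and 9.87 in Lewis (0.00 ± 0.14), and for Ythdf2 at 9.41, 9.46 and 9.31 in DA and 9.6, 9.45 and 9.6 in Lewis (-0.16 ± 0.13, adjusted p = 0.743). The probe sets of each gene thus gave different answers, and the difference cannot be assigned to the whole gene.

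Lcn2, a lipocalin that binds bacterial iron carriers and is found in neutrophil granules and inflamed tissue, was at 7.08, 7.31 and 7.53 in DA and 10.59, 10.61 and 10.27 in Lewis (-3.18 ± 0.54, 9.07-fold lower, adjusted p = 0.00348). The arrays of each strain lay close together, with a wide gap between the strains. Lcn2 was the only called gene of 9 measured neutrophil markers (0.528% of all genes were called lower). All 9 had a difference below 0, while 50.4% of all genes lay above 0. In 3 of the 9, all DA arrays lay below all Lewis arrays (8.53% of all genes did), and the median was -0.13. The mean over the 8 markers other than Lcn2 was 4.78, 4.82 and 4.77 in DA and 4.83, 5.02 and 4.99 in Lewis, and the part of neutrophil RNA in the difference of Lcn2 was not tested. The neutrophil gene S100a8 was at 5.08, 5.3 and 5.17 in DA and 5.21, 5.34 and 5.46 in Lewis. Cdkn1a, the inhibitor of cyclin-dependent kinases that responds to DNA damage, was at 7.9, 8.53 and 8.88 in DA and 10.94, 11.6 and 10.68 in Lewis (-2.64 ± 0.39, 6.21-fold lower, adjusted p = 0.000898). Its second probe set was also lower in every DA array (5.92, 7.55 and 6.6 against 8.22, 8.65 and 7.76), with a difference of -1.52 ± 0.46 that did not pass (adjusted p = 0.169). None of 20 genes of the cell cycle list was called, and their median was 0.15.

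Clybl, Tdh, Pygl and Ephx2, which encode enzymes, were lower in DA as well. Clybl, a mitochondrial lyase, was at 5.41, 5.63 and 4.82 in DA and 8.2, 8.16 and 7.6 in Lewis (-2.7 ± 0.25, adjusted p = 1.11e-06). Tdh, which degrades threonine, was at 4.92, 5.13 and 5.06 in DA and 7.64, 7.54 and 7.62 in Lewis (-2.56 ± 0.17, adjusted p = 1.33e-08). Pygl, the glycogen phosphorylase named for the liver, was at 5.33, 6.03 and 6.05 in DA and 7.96, 7.79 and 7.51 in Lewis (-1.95 ± 0.22, adjusted p = 1.88e-05). In all 3 the DA values lay near or under log2 6, the level that marks a dim probe set here. Ephx2, the soluble epoxide hydrolase that breaks down epoxides of fatty acids, was at 6.08, 6.01 and 5.78 in DA and 7.56, 7.07 and 7.14 in Lewis (-1.3 ± 0.16, adjusted p = 5.53e-05). It was the only called gene of the 65 measured conjugating and detoxifying enzymes (0.528% of all genes were called lower), whose median was -0.07. None of 53 cytochrome P450 genes and 23 glutathione S-transferases was called.

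Other genes lower in DA had various roles. Mis18a, needed to load the histone that marks centromeres, was at 6.53, 6.1 and 6.08 in DA and 8.89, 8.81 and 8.82 in Lewis (-2.6 ± 0.14, adjusted p = 5.59e-10). Cwc25, a spliceosome factor, was at 5.5, 5.26 and 5.91 in DA and 8.27, 7.95 and 8 in Lewis (-2.52 ± 0.2, adjusted p = 1.72e-07). Nek1, a kinase of the primary cilium and the DNA damage response, was at 7.11, 6.44 and 6.63 in DA and 8.34, 8.63 and 8.98 in Lewis (-1.93 ± 0.24, adjusted p = 8.94e-05). The Lewis arrays of Mis18a were almost equal, and all 3 genes had a wide gap between strains. Cemip2, a membrane protein of hyaluronan turnover, was at 5.72, 5.85 and 5.11 in DA and 8.81, 8.58 and 7.85 in Lewis (-2.85 ± 0.47, adjusted p = 0.00212). Scrn1 was at 6.11, 6.44 and 6.63 in DA and 9.36, 9.12 and 9.15 in Lewis (-2.82 ± 0.26, adjusted p = 1.04e-06), and its second probe set was called too (-1.53 ± 0.21). C130050O18Rikl, named only by a clone, was lower by 1.81 on the log2 scale (SE 0.28, adjusted p = 0.00119).

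Of 19 measured markers of heart muscle cells, 7 were called lower in the DA preparations (0.528% of all genes were) and 12 were not called. All 19 had a difference below 0, in 11 the DA arrays lay entirely below the Lewis arrays (8.53% of all genes did), and the median was -0.65. The mean over the list was 6.3, 6.63 and 6.85 in the DA arrays and 7.31, 7.93 and 7.26 in the Lewis arrays, with Lewis replicate 2 the highest. Tnnt2, the cardiac troponin that binds tropomyosin, was at 6.14, 6.74 and 7.61 in DA and 8.7, 9.98 and 8.62 in Lewis (-2.27 ± 0.44, 4.82-fold lower, adjusted p = 0.00893). Myl2, the light chain of ventricular myosin, was at 7.08, 7.21 and 7.85 in DA and 8.85, 10.24 and 8.54 in Lewis (-1.83 ± 0.38, adjusted p = 0.0175). The second probe set of Tnnt2, at a dim mean signal of 4.25, differed by only -0.14 ± 0.13. That of Myl2, at a mean signal of 6.06, differed by -0.29 ± 0.15, and neither was called. Both genes were highest in Lewis replicate 2, and both calls were lost without it (adjusted p = 0.0889 and 0.15) and without DA replicate 1 or 2 (0.0742 and 0.052 for Tnnt2, 0.0986 and 0.104 for Myl2). Tnni3, Tnnc1, Mb, Pln and Myl3, which encode proteins of the contractile apparatus, oxygen storage and calcium handling, were called as well, with differences of -1.34 to -1.76, and the call of Pln was lost without any 1 of 5 arrays, all but DA replicate 3, and with the pan-leukocyte covariate (adjusted p = 0.0566). In the fit on the 6 normal arrays alone, Tnnt2, Myl2, Tnni3 and Pln did not pass (adjusted p of 0.0621 to 0.108). Another probe set of Pln was called lower as well (-1.52 ± 0.34), while a dim one differed by 0.07 ± 0.1. In bulk RNA, fewer cells of a type and less RNA per cell cannot be told apart.

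Cox8b, a subunit of cytochrome oxidase made in muscle, was at 5.85, 6.15 and 6.74 in DA and 7.59, 9.15 and 7.21 in Lewis (-1.73 ± 0.39, adjusted p = 0.0329), a call that was lost without DA replicate 1 or 2 or Lewis replicate 2 (0.137 to 0.242), in the fit on the 6 normal arrays alone (0.176) and with the pan-leukocyte covariate (0.0513). It was the only called gene of 88 respiratory chain genes (0.528% of all genes were called lower), whose median was 0.05. Mural cell markers, of the smooth muscle cells and pericytes around vessels, had a difference below 0 in 12 of 13 genes (50.4% of all genes were above 0). Of the 13, 1 was called lower (0.528% of all genes were), and the median was -0.5. Myh11, the smooth muscle myosin, was at 8.5, 8.14 and 8.02 in DA and 9.63, 9.88 and 8.88 in Lewis (-1.24 ± 0.22, adjusted p = 0.00392), but did not pass with the mean of its probe sets (-0.71, adjusted p = 0.0685) or in the fit on the 6 normal arrays alone (adjusted p = 0.0755). The mean over the mural list was 7.92, 7.84 and 7.48 in the DA arrays and 8.61, 8.25 and 7.95 in the Lewis arrays. Of 13 fibroblast markers none was called, and their median was 0.13. The list means of 2 further cell types did not overlap between strains, with no called member. The arterial mean (8 markers) was 10.88, 10.69 and 10.71 in DA and 10.96, 10.99 and 10.93 in Lewis, and the erythroid mean (7 markers) was 8.68, 8.31 and 8.47 in DA and 8.22, 8.09 and 8.09 in Lewis. Their part in the other differences was not tested.

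With the mean of the cardiomyocyte markers as a covariate, 142 of the 144 called genes kept the sign of their difference and 21 kept the call, while the median ratio of the SE with and without the covariate was 1.56 and that of the difference 0.934. Without the called genes that are themselves on the cardiomyocyte list, the median ratio of the difference was 0.948. The difference of Tnnt2 became -0.21 and that of Myl2 0.01. Both genes are part of the covariate, so part of this fall was fixed in advance. The difference of Cox8b, which is not on that list, became 0.06. Ccn1 then differed by 4.75 ± 0.90 (adjusted p = 0.0322), Ifit1 by 3.77 (7.7e-05), RT1-T24-4 by 3.65 (1.61e-08) and Wtap by -3.42 (0.00039), whereas Thbs4 (2.65, adjusted p = 0.0809), Ubd (3.72, 0.0653), Lcn2 (-3.74, 0.114) and Cdkn1a (-2.01, 0.547) were no longer called. Of the 42 genes called in normal hearts and in grafts of all 3 days, described below, 19 stayed called in normal hearts with this covariate. With the mural markers as a covariate, an alternative added after the data were seen, 116 of the 144 stayed called.

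**Figure D2:**
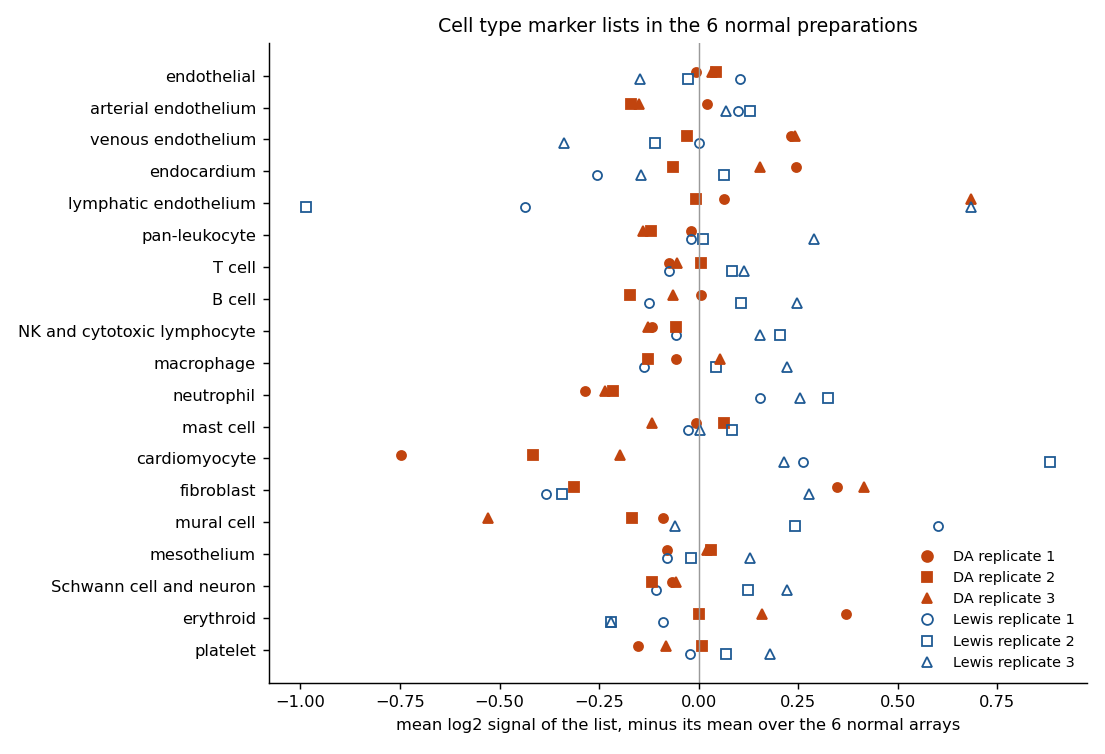
Mean log2 signal of each cell type marker list in the 6 normal preparations, minus the mean of the 6. Filled symbols are the DA arrays and open symbols the Lewis arrays, with a symbol for each replicate number. The cardiomyocyte, mural, neutrophil and arterial lists have all DA arrays to the left of all Lewis arrays, the erythroid list has them to the right, and the endothelial list has overlapping strains.

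Most other gene groups had no called member. Of the 144 called genes, 121 were on none of the 48 lists. The lists hold only a part of the 14217 genes. The share of all genes on no list was not counted, so the 121 cannot be read as many or few. Of 15 genes of leukocyte adhesion none was called, and the median was 0.01. The adhesion receptors Sele (9.46, 8.52 and 9.06 in DA against 7.69, 8.37 and 7.55 in Lewis, adjusted p = 0.259) and Vcam1 (11.03, 10.39 and 11.24 against 9.44, 10.58 and 9.6, adjusted p = 0.216) had the largest differences, of 1.14 ± 0.38 and 1.01 ± 0.32, with all DA arrays above all Lewis arrays in Sele and with overlap in Vcam1. None of 14 genes of endothelial junctions (median -0.09), 19 of vascular tone (0.01), 16 of coagulation and fibrinolysis (0.03), 14 of fatty acid uptake (-0.04) and 22 immediate early genes (0.06) was called. The immediate early gene Atf3 was at 12.96, 13.1 and 13.09 in DA and 12.82, 13.25 and 12.49 in Lewis. Of 17 genes of hypoxia and glycolysis, 1 was called, lower in DA (0.528% of all genes were). It was Ldhb, a subunit of lactate dehydrogenase, at 9.54, 9.23 and 9.37 in DA and 10.2, 10.34 and 9.9 in Lewis (-0.77 ± 0.19, adjusted p = 0.0499). The call was lost without any 1 of 5 arrays, all but Lewis replicate 3, and in the fit on the 6 normal arrays alone (0.0669). The 7 lymphatic markers had a median of 0.63 with no called member and with overlap between strains in each, as in Lyve1, at 8.7, 8.58 and 9.46 in DA and 7.96, 7.51 and 9.14 in Lewis.

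**Figure D3:**
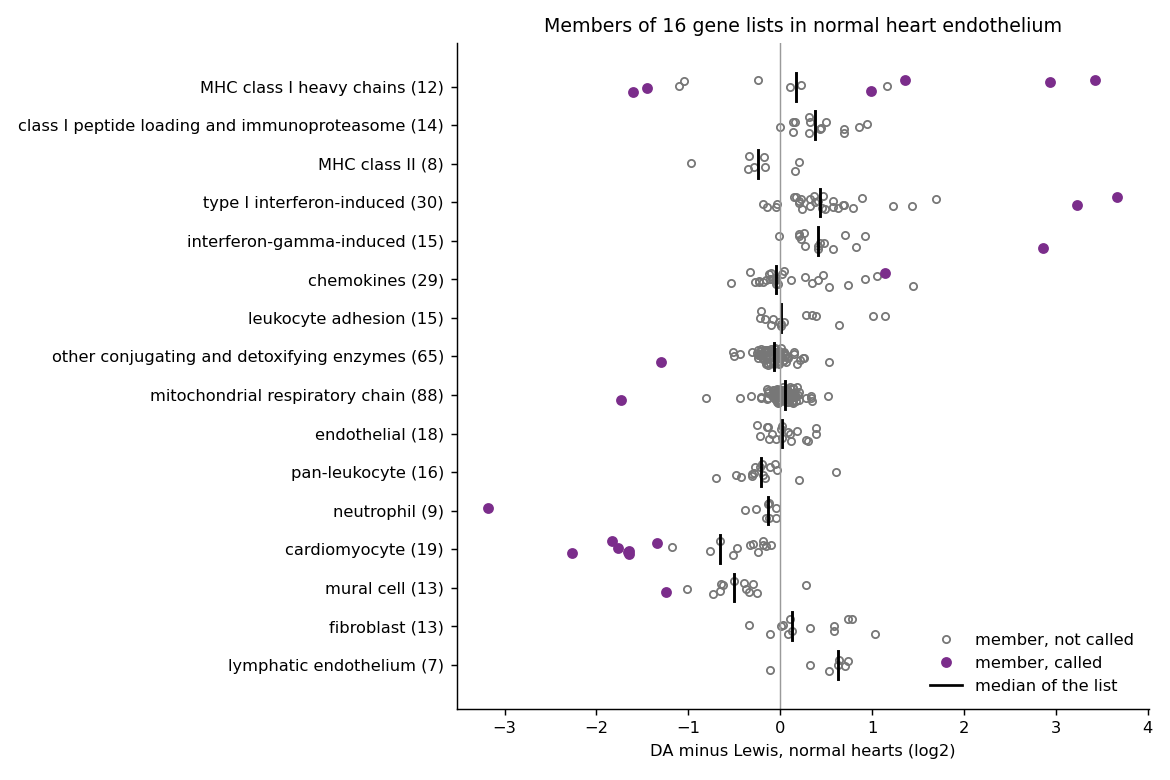
Differences between the strains in normal hearts for the members of 16 gene lists, with the number of measured members in parentheses. Each point is a gene, filled where called, the black bar is the list's median and the horizontal axis is DA minus Lewis in log2 signal. The cardiomyocyte list lies wholly to the left of 0 with 7 filled points, and the class I list has filled points on both sides, from -1.6 to 3.43.

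The grafts gave a second view of the same strain pair in arrays that the normal comparison did not use as samples. On each day the hearts of allografts were DA and those of isografts Lewis, both in Lewis recipients, but the groups also differed in the mismatch between donor and recipient, so strain and immune response cannot be told apart there. The 4 comparisons also share 1 estimate of the spread of each gene. Called between the donor strains were 125 genes on day 2 (0.879%), 150 on day 3 (1.06%) and 321 on day 4 (2.26%). Higher in DA were 0.366%, 0.598% and 1.35% of the genes tested on these days, and 0.513%, 0.457% and 0.907% were lower. Leaving out single arrays moved these counts by over 1.5 times in several cases, most on day 4, to 1077 without allograft replicate 1 and 109 without allograft replicate 3. Of the 144 genes called in normal hearts, the sign was the same in 144, 141 and 141 on days 2, 3 and 4, and in 138 on all 3 days (95.8%, against 37.7% of all genes tested). Called again in the same direction were 63, 69 and 70 of the 144, and none in the other direction. These are 43.8%, 47.9% and 48.6% of the 144 and 50.4%, 46% and 21.8% of the genes called on the respective day. Called in normal hearts and on all 3 days in 1 direction were 42 genes (0.295% of those tested), 17 higher in DA and 25 lower, which is 29.2% of the 144 and 72.4% of the 58 genes (0.408%) called in 1 direction on all 3 graft days.

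**Figure D4:**
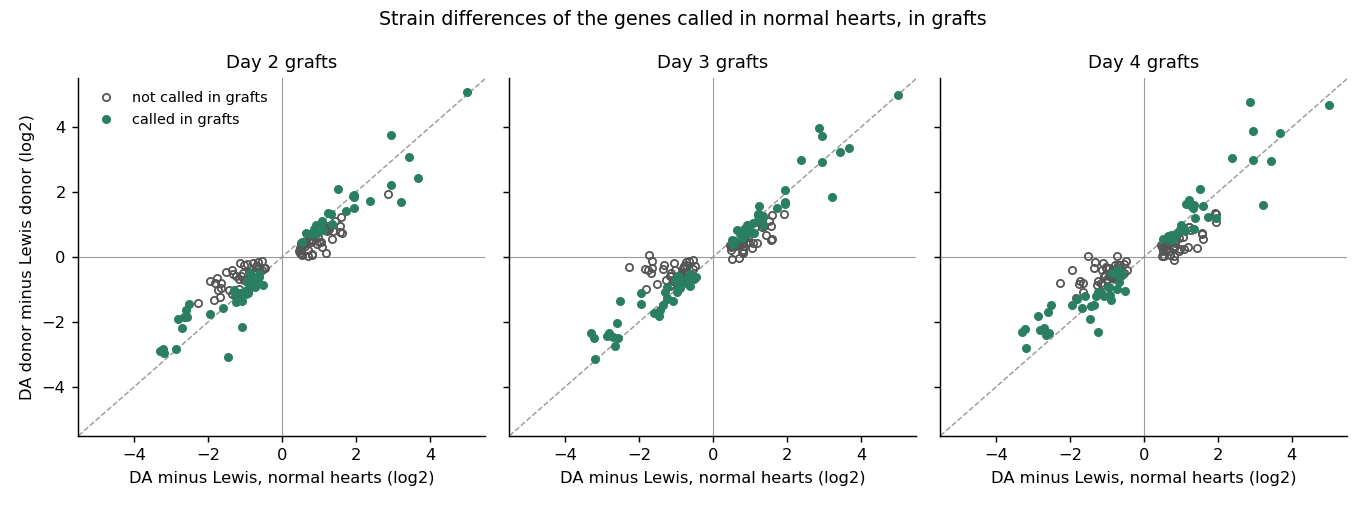
DA minus Lewis difference of the 144 called genes in normal hearts (horizontal axis, log2) against that between DA donor and Lewis donor hearts in grafts (vertical axis, log2), with a panel for each day. Filled points were called in the grafts of that day, which 63, 69 and 70 were in the same direction. The points lie mostly at the lower left and upper right, and mostly nearer to the horizontal axis than the diagonal would be, with median ratios of 0.734, 0.725 and 0.69.

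Ccn1 had nearly the same difference in grafts as at rest, with group means of 11.97 ± 0.32 (SD, n = 3), 11.87 ± 0.43 and 11.96 ± 0.29 in allografts of days 2, 3 and 4 and 6.9 ± 0.64, 6.89 ± 1.61 and 7.29 ± 0.79 in isografts. The differences were 5.07, 4.98 and 4.67. RT1-T24-4 differed by 3.09, 3.23 and 2.96, Thbs4 by 3.76, 3.73 and 3.89, Ifit1 by 2.42, 3.36 and 3.83 and RT1-CE16 by 2.22, 2.92 and 3. By the smallest of their 4 differences, these were the 5 highest of the 17 genes higher in DA throughout, followed by H2-Q7-ps1 (1.73), Ifi27l2b (1.61), Nfe2l1 (1.25), Gfpt2 (1.22) and Pou2f1 (1.2). Nfe2l1 is a stress-responsive transcription factor that controls proteasome genes, and its call in normal hearts was lost without DA replicate 2 (adjusted p = 0.0695). Among the 25 lower in DA throughout, Lcn2 was first, with differences of -2.95, -3.13 and -2.79. Its mean was 7.4 ± 0.45 (SD), 7.53 ± 1.16 and 8.03 ± 1.57 in allografts and 10.35 ± 0.37, 10.65 ± 0.34 and 10.82 ± 0.13 in isografts. At rest it was 7.31 ± 0.23 in DA and 10.49 ± 0.19 in Lewis. The means thus stayed near those at rest, but the allograft arrays of days 3 and 4 were widely spread. Lcn2 was followed by Wtap, Ythdf2, Clybl, Scrn1, Cdkn1a, Tdh, Cemip2, Mis18a and RT1-T24-3, whose smallest differences were 2.29 down to 1.45 in size.

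Other genes were not called on every graft day. Called in normal hearts and on no graft day were 52 of the 144, on 1 day 24 and on 2 days 26. A gene not called on every day did not always have a smaller difference on each day. Mcub, for example, differed by 1.51 at rest. It was called on days 2 and 4 with larger differences (2.11 and 2.1). On day 3, where its difference was smaller (1.12), it was not called (limma adjusted p = 0.205). The cardiomyocyte markers Tnnt2 (-1.41, -0.3 and -0.8 on days 2, 3 and 4) and Myl2 (-1.31, -0.38 and -1.26) were among those with smaller values, and the median of their list was -0.39, -0.13 and -0.34. The type I interferon list had a median of 0.43 in normal hearts and -0.24, 0.2 and 0.19 in grafts, while the interferon-gamma list had 0.41 in normal hearts and 0.14, 1.47 and 2.22 in grafts. The difference of Ubd, 2.86 at rest, was 1.94 (adjusted p = 0.0884), 3.97 and 4.76 in grafts. Class II genes, without a call at rest, had medians of 1.48, 1.09 and 1.87 in grafts, with 4, 1 and 5 of 8 called higher (0.366%, 0.598% and 1.35% of all genes). The 6 genes whose sign turned on a graft day, Dock11, Pde10a, LOC100911946, Cox8b, Gart and Pcdhb9, had differences of at most 0.1 in size on that day.

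The change of the strain difference with grafting was tested as the mean difference of the 3 graft days minus that in normal hearts. It shares the normal arrays with the strain comparison, so a gene called there tends to a smaller difference by the choice alone. In size 123 of the 144 were smaller in grafts, 44 had an unadjusted p under 0.05 for the change, and none was called. Ifi27l2b had 1 of the larger changes, -1.51 ± 0.34 (adjusted p = 0.502), with isograft means of 10.44, 11.09 and 10.99 against normal Lewis values of 9.02 to 9.4. Of all 14217 genes 1 was called (0.00703%), Sectm1b, and 578 had an unadjusted p under 0.05. Sectm1b had like values in both strains at rest, at 6.36, 6.42 and 6.43 in DA and 6.46, 6.64 and 6.56 in Lewis, and differed by 0.52, 1.66 and 3.2 in grafts of days 2, 3 and 4.

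Where a called gene had further probe sets, these tested the difference with other probes of the same transcript. Of the 144 genes, 52 had 67 further probe sets: 55 had the same sign, 12 the opposite sign, 13 were called in the same direction and 2 in the other (359 of 31042 probe sets were called in all). Of the 44 with a mean signal of log2 6 or more, 37 had the same sign and 11 were called in the same direction. RT1-S3 and Scrn1 are examples of agreement, and Wtap and Ythdf2 of none. The 2 called in opposite directions belonged to Zfp212 and Ppih, named here because of these values. Zfp212, a zinc finger protein, was lower in DA on its brightest probe set (-0.73 ± 0.14) and higher by 3.59 ± 0.29 on another, at 8.79, 8.4 and 8.45 in DA and 4.54, 5.18 and 5.15 in Lewis, with 3.84, 4.15 and 3.83 in grafts. Ppih, a cyclophilin of the spliceosome, differed by 0.53 ± 0.09 on 1 probe set and by -0.8 ± 0.16 on the other. Tln2 was called on 1 probe set only, the other 2 differing by -0.22 ± 0.2 and 0.21 ± 0.13, and with the mean of its probe sets the call was lost (0.53, adjusted p = 0.175).

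**Figure D5:**
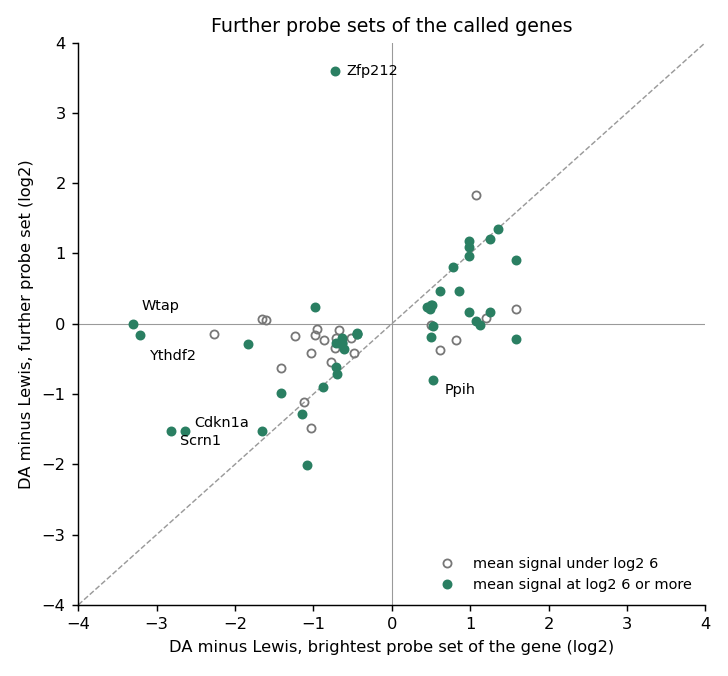
Strain difference in normal hearts on the brightest probe set of a called gene (horizontal axis, log2) against that on each of its 67 further probe sets (vertical axis, log2). Filled points have a mean signal of log2 6 or more. Points near the diagonal, such as those of RT1-S3, gave like values on both, those near the horizontal axis, such as Wtap at -3.3 and 0.00, did not, and Zfp212 lies at the upper left, at -0.73 and 3.59.

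In the gene order of the RefSeq annotation, 5 of the 144 lay directly beside another called gene among the 14167 measured genes that could be placed, in 2 runs. The first run was RT1-S3, RT1-T24-4 and RT1-T24-3, neighbouring class I genes with differences of 0.99, 3.43 and -1.45, of which RT1-S3 and RT1-T24-4 differed in the same direction and RT1-T24-4 and RT1-T24-3 in opposite directions. The second was Srsf3 and Cdkn1a, at 1.95 and -2.64, in opposite directions. Another called gene lay among the 5 measured genes on either side in 19 of the 144 (13.2%) and in 9.38% of all genes placed.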

How the data were processed

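RNA of CD31-enriched rat heart endothelium had been hybridized, as biotin-labelled cRNA after 1 cycle of amplification, to Affymetrix rat arrays. Per probe set, the deposited value is a log2 signal made by the authors with RMA in the affy package per the submitters' processing notes. The sources used here give no versions. RMA corrects the background, equalizes the distributions of the arrays and summarises the probes, so a shift shared by most genes is removed and changes at the dim end are compressed. Medians of the arrays gave a hint that the 24 endothelial arrays were normalized as 1 set and the 4 leukocyte arrays as another. Medians alone cannot show this. The values were used as they stood, and 0 columns belonged to no sample. Array signals have no counting depth.

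The table has 31099 probe sets. Left out were 57 controls, 436 with more than 1 gene and 9780 absent from the annotation used here, which left 20826, and 20758 of them could be given a RefSeq symbol by Entrez identifier. A gene was represented by its brightest probe set (mean of the 24 arrays) where it had several, as 4525 of the 14217 genes did.

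limma 3.58.1 (lmFit and eBayes, R 4.3.3) was fitted to the 24 arrays with 1 mean per group, so that all 8 groups share 1 estimate of the spread, with residual degrees of freedom of 16 and prior degrees of 4.06. The contrasts were DA minus Lewis in normal hearts, allograft minus isograft on days 2, 3 and 4, and the mean of these 3 minus the first. The p-values of each were adjusted over all genes, and an adjusted p under 0.05 was a call. Same-numbered normal arrays did not deviate from their group means together (correlations of -0.015, -0.037 and 0.102), so the replicate number was not used as a block in the main fit. These correlations cover the normal arrays only, and those over all 24 arrays are described further on. On simulated data with the spread of these arrays, 84% and 96% of 100 genes changed by log2 1 and 2 were recovered in the normal comparison of 14217 genes, with 9 false calls.

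The samples, the 48 gene lists (29 of processes, 19 of cell types) and the tests were chosen with earlier results of these data known. Symbol patterns for gene families were used for some lists, and Fmod was taken out of the list it had entered by its letters. Named are the 15 highest and 15 lowest called genes, of the genes called in 1 direction in normal hearts and on all 3 graft days the 10 highest and 10 lowest by the smallest of the 4 differences, up to 4 members of each list by size, and called genes in runs of 3 neighbours, besides genes said to be picked by their values. Promoters came from RefSeq (GRCr8). Python 3.11.15, pandas 2.3.3 and matplotlib 3.10.9 were used. Alternatives tried were a fit on the compared groups alone, the replicate number as a block, the mean of the probe sets or every probe set, a filter at log2 6 in at least 3 arrays, an intensity trend with robust prior, array weights, a repeated quantile normalization, marker means as covariates, and leaving out each array.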

Additional observations from a re-analysis of the deposited data

Results flagged for a closer look

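Sectm1b, a small transmembrane protein related to a ligand of T cells and NK cells, was the single gene whose difference between DA and Lewis was called to change between normal hearts and grafts (1.95 ± 0.30 higher in grafts, limma adjusted p = 0.0348, adjusted over 14217 genes). Its difference was -0.15 in normal hearts and 0.52, 1.66 and 3.2 in grafts of days 2, 3 and 4. With single arrays left out in turn, this change gave no called gene in 19 of 24 cases and 1 called gene in the other 5. No explanation was tested.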

How the results depend on the processing

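Of the 144 genes called in normal hearts, all kept the sign of their difference in each alternative that tested them, except 2 with the mean of a gene's probe sets and 2 with the cardiomyocyte covariate, Myl2 (0.01) and Cox8b (0.06). The count stayed within 1.5 times of 144 with the compared groups alone (110, of which 82 were among the 144), the mean of probe sets (153), bright genes only (135), an intensity trend (131), repeated quantile normalization (153) and the pan-leukocyte covariate (138). It was 359 over every probe set, 554 with array weights, 21 with the cardiomyocyte covariate and 234 with the mural covariate, which was chosen after the data were seen.

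In grafts of days 2, 3 and 4, every probe set gave 285, 321 and 562 calls and array weights 543, 890 and 1782. On days 2 and 4 the compared groups alone gave 37 and 34, the pan-leukocyte covariate 29 and 80, and the cardiomyocyte covariate 39 and 80. The genes called in normal hearts and on all 3 graft days numbered 16 with the compared groups alone, 121 over every probe set, 119 with array weights, 19 with the pan-leukocyte covariate and 17 with the cardiomyocyte covariate. The change with grafting gave 14 calls with array weights and 0 over every probe set and with the pan-leukocyte and cardiomyocyte covariates. It was not computed on the compared groups alone. The cause of these moves was not tested, except that every probe set tests 31042 features in place of 14217.

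Leaving out each array in turn gave 75 to 132 calls in normal hearts, 58 to 129, 65 to 140 and 109 to 1077 on days 2, 3 and 4, 0 to 1 for the change and 29 to 46 genes called throughout. On day 2 the count was 81 without allograft replicate 3 and 58 and 64 without isograft replicates 1 and 3. On day 3 it was 78 and 86 without allograft replicates 2 and 3 and 99, 66 and 65 without isograft replicates 1, 2 and 3. On day 4 it was 144 and 148 without isograft replicates 2 and 3, besides the values without allograft replicates 1 (1077) and 3 (109). With the replicate number as a block, the calls numbered 166 in normal hearts, 144, 179 and 369 in grafts, 1 for the change and 47 throughout, and 138 of the 144 stayed called. The numbers do not pair the samples by the labels. For each array, its deviations from the group mean were correlated with those of the arrays in other groups, averaged by replicate number. In 16 of 24 arrays the mean was highest for the array's own number, out of 3 numbers, a hint from the data and not from the design.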

Other observations

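Of 10216 probe sets that have no single gene in the annotation used here, 135 (1.32%) were called in normal hearts by limma (adjusted over 31042 probe sets), 68 higher in DA and 67 lower, against 359 (1.16%) of all 31042. Of these 135, 130 had the same sign in grafts of all 3 days and 61 were called on each day as well, and 24 differed by at least log2 2. The highest was 1397859_x_at, at 10.08, 10.23 and 10.85 in DA and 5.51, 5.01 and 5.08 in Lewis (5.19 ± 0.42, adjusted p = 2e-07), followed by 1379340_at with 3.33. The lowest were 1391512_at (-4.64 ± 0.36, adjusted p = 1.39e-07) and 1397569_at (-4.51 ± 0.26). The size of the highest exceeds that of Ccn1, the gene with the largest difference among the named genes. These probe sets were chosen after their values were seen.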
